A study of Mus musculus with 8 samples.

Results

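The 9 transcription factors described here drive the formation and first subdivision of mesoderm at gastrulation, and were followed in mouse chimaeras of Tet-TKO and host cells. They are T (Brachyury), Eomes, Mixl1, Mesp1, Msgn1, Tbx6, Evx1, Lhx1 and Snai1, 9 of the 55422 features counted, and were taken by gene symbol, each of which named exactly 1 feature. Embryonic stem cells lacking Tet1, Tet2 and Tet3 (Tet-TKO), which carry an H2B-tdTomato label under the CAG promoter and have the background C57BL/6J-129Sv, had been injected into wild-type C57BL/6J blastocysts. The chimaeras were carried by CD1 recipients to E7.5 or E8.5, pooled, and sorted into tdTomato-positive Tet-TKO cells and tdTomato-negative WT host cells for droplet 3′ RNA sequencing. At E8.5 the Tet-TKO cells were sequenced in 4 libraries and the host cells in 2, while E7.5 had 1 library of each genotype. All Tet-TKO cells came from 1 cultured cell line, and strain and culture history cannot be told apart from genotype. Nothing in the labels says that libraries of a group came from separate pools of embryos, so p-values measure the spread between these libraries, which may be technical.

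During gastrulation, epiblast cells enter the primitive streak, lose their epithelial character and leave it as mesoderm. T, Eomes and Tbx6 are T-box factors. T and Eomes act in the streak, where T maintains posterior mesoderm, the notochord and the axial progenitors of the tail, and Eomes serves the earliest mesoderm and the definitive endoderm. Tbx6 acts later and holds cells of the presomitic mesoderm to a mesodermal rather than a neural fate. Mixl1, Evx1 and Lhx1 are homeodomain factors of the streak and its descendants, and Lhx1 is used again in intermediate mesoderm and the nervous system. Mesp1 and Msgn1 are bHLH factors, of nascent and cardiac mesoderm and of presomitic mesoderm respectively. Snai1 is a zinc-finger repressor of Cdh1 that takes part in the epithelial-mesenchymal transition and is also expressed in neural crest. TET enzymes oxidise methylated cytosine, mostly at CpG dinucleotides, and the CpG content of the members' promoters is given first as a description. The paper reports that TET-dependent demethylation took place at distal regulatory regions, with negligible effects at promoters. Methylation was not measured in these libraries.

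In GENCODE M21, on mm10, T (ENSMUSG00000062327) lies at chr17:8434423-8442496 on the + strand, Eomes (ENSMUSG00000032446) at chr9:118478212-118486132 (+) and Mixl1 (ENSMUSG00000026497) at chr1:180693043-180697034 (-). Mesp1 (ENSMUSG00000030544) and Tbx6 (ENSMUSG00000030699) are both on chromosome 7, at chr7:79792241-79793788 (-) and chr7:126781483-126785560 (+). Msgn1 (ENSMUSG00000047002) lies at chr12:11208360-11208972 (-), Evx1 (ENSMUSG00000005503) at chr6:52313498-52318378 (+), Lhx1 (ENSMUSG00000018698) at chr11:84518284-84525535 (-) and Snai1 (ENSMUSG00000042821) at chr2:167538195-167542814 (+). Eomes overlaps Gm33460 and Evx1 overlaps Evx1os, and the other members overlap no annotated gene.

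In RefSeq, on GRCm38.p6, 8 of the 9 members had a promoter window of 250 bases before to 50 bases after the gene's start, all but Mixl1. The 4 windows printed here belong to the genes whose levels differed most clearly between the genotypes. They run 5′ to 3′ on the strand of the gene, at chr17:8434173-8434472 (+) for T, chr7:126781233-126781532 (+) for Tbx6, chr11:84525485-84525784 (-) for Lhx1 and chr2:167537945-167538244 (+) for Snai1, and capitals mark each CpG.
T: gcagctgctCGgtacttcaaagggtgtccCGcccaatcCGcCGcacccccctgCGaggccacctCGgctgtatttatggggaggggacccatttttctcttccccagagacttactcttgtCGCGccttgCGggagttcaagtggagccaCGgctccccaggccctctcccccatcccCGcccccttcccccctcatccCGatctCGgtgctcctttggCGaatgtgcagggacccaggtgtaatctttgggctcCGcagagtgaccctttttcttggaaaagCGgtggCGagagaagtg
Tbx6: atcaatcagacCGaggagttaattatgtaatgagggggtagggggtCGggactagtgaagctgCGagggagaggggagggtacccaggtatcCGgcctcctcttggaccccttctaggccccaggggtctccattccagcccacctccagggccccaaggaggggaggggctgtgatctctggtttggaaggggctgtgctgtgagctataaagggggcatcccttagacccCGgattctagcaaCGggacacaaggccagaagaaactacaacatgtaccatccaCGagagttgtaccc
Lhx1: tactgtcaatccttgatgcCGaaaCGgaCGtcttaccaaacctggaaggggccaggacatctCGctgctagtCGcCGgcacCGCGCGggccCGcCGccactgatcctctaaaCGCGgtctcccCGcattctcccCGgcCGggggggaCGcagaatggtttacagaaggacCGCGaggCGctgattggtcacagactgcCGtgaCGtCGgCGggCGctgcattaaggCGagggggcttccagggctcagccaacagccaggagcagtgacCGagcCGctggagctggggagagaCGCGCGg
Snai1: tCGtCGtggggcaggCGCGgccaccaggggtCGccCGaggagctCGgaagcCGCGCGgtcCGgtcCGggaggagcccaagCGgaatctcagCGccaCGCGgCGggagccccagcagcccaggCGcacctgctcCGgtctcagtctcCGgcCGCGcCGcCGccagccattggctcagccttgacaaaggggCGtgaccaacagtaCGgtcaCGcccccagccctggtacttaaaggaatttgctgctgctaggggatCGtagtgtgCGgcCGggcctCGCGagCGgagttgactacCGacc

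The windows of Snai1 and Lhx1 held 34 and 31 CpG, against a median of 7 and quartiles of 3 and 20 over 32851 RefSeq promoter windows. T held 17, Evx1 12 and Eomes 10. Tbx6, with 7, lay at the median, and Mesp1 and Msgn1 held 4 each. The core of the T-box site, AGGTGT on either strand, was present in 13.7% of all windows and matched 2 times in Mesp1 and 1 time each in T and Evx1. The TCF/LEF letters CTTTGA, present in 16.003% of all windows, matched 2 times each in Mesp1 and Msgn1 and 1 time in T. The Snail E-box CAGGTG, which can share its letters with the T-box core and was present in 20.2% of all windows, matched 1 time each in T, Mesp1, Evx1 and Snai1. None of these letters occurred in the windows of Tbx6, Lhx1 or Eomes.

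Per library, between 65601218 and 136982886 UMIs had been deposited and between 1008 and 9545 cells passed the filters, 49842 in all. The median UMI count of these cells ranged from 12178 to 68931, and Tet-TKO libraries 3 and 4 had the fewest cells and the highest medians at E8.5. Among the Tet-TKO libraries, 1 resembled 2 and 3 resembled 4 in their counts (chi-square per degree of freedom 15.5 and 17.7), whereas pairs across these sets gave 176 to 190 and the WT host pair gave 140. tdTomato was found in 60.8% to 87.3% of Tet-TKO cells and in 0.532% to 0.841% of WT host cells. Transcripts of the Tet genes were still counted in Tet-TKO libraries (at E8.5 Tet1 at 9.92 to 20.9 CPM against 20.4 to 22.6 in WT host libraries, Tet2 at 5.55 to 10.5 against 4.63 to 4.67, and Tet3 at 22.5 to 37.5 against 23.1 to 23.2), and since the sources used here do not place the deletions relative to the 3′ tags, these values do not check the knockout. Any 2 libraries shared between 0 and 28 cell barcodes.

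Levels are given as CPM, for which the UMIs of a gene are divided by all UMIs of the cells of 1 class in 1 library and scaled to the same total. As 3′ UMI counts they compare 1 gene between samples, not genes with each other. Classes are clusters of cells, built without the members. A cluster took a cell type's name, with the ending "-like", only if 3 or more markers of that type stood out. Their mean log2 fold also had to reach 1 and lead the next type by 0.2. Single markers of a named class could therefore be low, as Cyp26a1 in E7.5 presomitic mesoderm-like cells (3.17 CPM, 43.0 CPM in the rest). All other clusters kept their number, including some with raised markers but no type clearly first, such as cluster 44 of E8.5. At E8.5 the members sat where the caudal axis is built. Among the 38 classes tested, T in WT host cells was highest in notochord-like cells (mean 1218 CPM), followed by caudal epiblast and NMP-like cells (150 CPM), the neuromesodermal progenitors of the tail, and presomitic mesoderm-like cells (113 CPM), and the libraries of these neighbours in the order did not overlap. Primordial germ cell-like cells, which were not tested, held 261 CPM of T in WT host library 1 (14 cells) and 43.1 CPM in library 2 (6 cells). The presomitic mesoderm-like class was also the highest for Tbx6 (101 CPM), Msgn1 (12.6 CPM) and Mixl1 (39.3 CPM). Its Tbx6 level stood clear of the 41.3 CPM of cluster 52, whose leading genes are Tcf15, Pcdh19 and Meox1, and its Msgn1 level stood clear of every other class. For Mixl1 its libraries overlapped those of the next class.

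The remaining members peaked elsewhere. Evx1 was highest in cluster 6, led by Cdx4 and posterior Hox genes (80.9 CPM), and its libraries there did not overlap the presomitic mesoderm-like (60.3 CPM) or caudal epiblast and NMP-like (58.6 CPM) classes, which overlapped each other. Lhx1 was highest in cluster 29, led by Prrx1 and Osr1 (145 CPM). Of the classes tested, Snai1 was highest in ExE mesoderm-like cells (174 CPM), cluster 4, led by Phlda2, Pitx1 and Tbx4 (142 CPM), and allantois-like cells (139 CPM), of which the libraries of the first stood clear of the others and the latter pair overlapped. Parietal endoderm-like cells, which were not tested, held 332 CPM of Snai1 in WT host library 1 (38 cells) and 279.6 CPM in library 2 (9 cells). Mesp1 averaged 45.6 CPM in presomitic mesoderm-like cells and 50.1 CPM in cluster 52, where the host libraries were at 0 and 100.3 CPM. Eomes, a gene of the early streak, was by then at most a mean of 8.33 CPM among the 38 classes tested, in epiblast-like cells. ExE ectoderm-like cells, which were not tested, held 57.1 CPM in WT host library 1 (152 cells) and 51.1 CPM in library 2 (52 cells).

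Across 238 sums of at least 30 cells from both stages, each gene's log2(CPM + 1) was set beside that of the members, as a description over classes that share libraries. T and Mixl1 were most like each other (Pearson r 0.84). Mixl1 was also close to Mesp1 (0.80) and to Evx1 (0.78). Tbx6 was closest to Dll3 (0.84), Hes7 (0.76) and Fgf4 (0.74), the first 2 of which are components of the segmentation clock and were markers of the presomitic mesoderm class. Eomes was closest to Tdgf1 (0.81) and Fgf5 (0.80), and Snai1 to Tmem119 (0.72) and Dlc1 (0.68). Evx1 and Lhx1 were closest to Evx1os (0.94) and Lhx1os (0.80). Evx1os overlaps Evx1 on the genome, and the sources used here do not say whether counting used strand. Whether the reads of this pair were told apart was not checked. Msgn1 did not reach the 20 CPM required for this comparison in any sum.

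**Figure D1:**
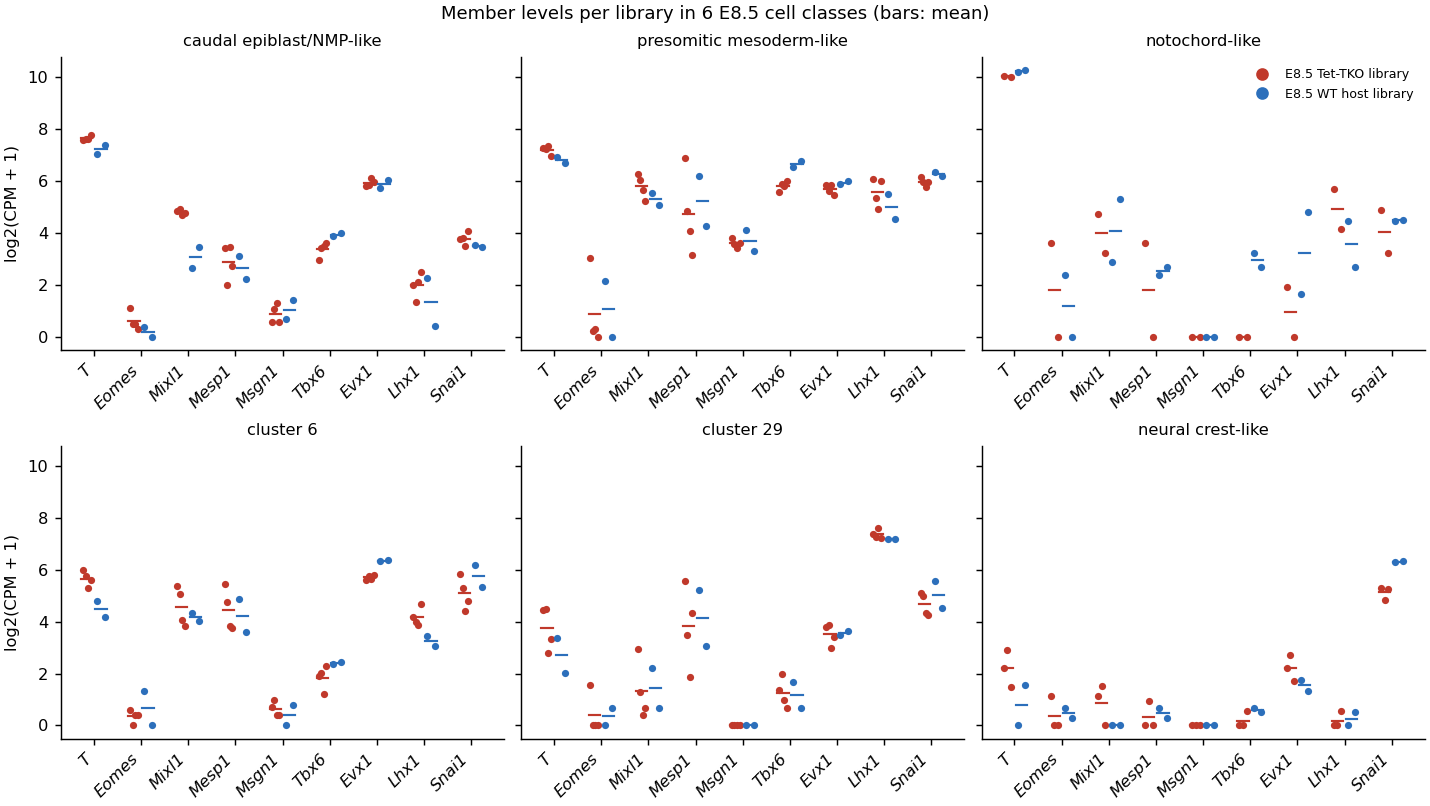
Levels of the 9 members, as log2(CPM + 1), in 6 cell classes at E8.5, with 1 point per library of at least 10 cells (red, Tet-TKO; blue, WT host) and a bar at the mean. T stands highest in notochord-like cells, Tbx6 and Msgn1 in presomitic mesoderm-like cells, Lhx1 in cluster 29, and the points of the 2 genotypes lie apart for Mixl1 in the caudal epiblast and NMP-like class, for Tbx6 in presomitic mesoderm-like cells and for Snai1 in neural crest-like cells.

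The design asks whether cells without TET enzymes express these factors at the level of host cells of the same class. Over the 38 classes of E8.5 few members passed the threshold. Of 342 pairs of a member and a class, 118 had enough counts to be tested by the quasi-likelihood test of edgeR. At an adjusted p below 0.01 and a change of at least 2-fold, 2 of these were higher in Tet-TKO cells, Mixl1 in the caudal epiblast and NMP-like class and T in cluster 37, and 1 was lower, Snai1 in neural crest-like cells. These are 1.69% and 0.847% of the tested pairs, against 0.234% and 0.357% of all genes in the same fits. At an unadjusted p below 0.05, 24 of the 118 pairs were higher and 9 lower, where all genes gave 5.53% and 5.48%. Of the 24, Lhx1 gave 12 and T 8, and of the 9, Snai1 gave 6 and Tbx6 2. They are thus not read as a trait of the whole set. The median log2 fold change over the tested pairs was 0.21, and within presomitic mesoderm-like cells, where all 9 members were tested, it was -0.02 against 0.01 for all 10608 genes. The classes of a library share its cells' origin and depth, so these counts are not independent.

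Mixl1, a homeodomain factor that in normal embryos is largely confined to the streak and its immediate descendants, was higher in Tet-TKO caudal epiblast and NMP-like cells. In Tet-TKO libraries 1 to 4 it stood at 27.5, 29.7, 25.1 and 26.1 CPM, whereas WT host libraries 1 and 2 held 5.36 and 9.92 CPM. All Tet-TKO libraries lay above both host libraries, and the Tet-TKO values were close together although their cells numbered 306, 585, 107 and 59. The log2 fold change was 1.86 ± 0.26 (SE, adjusted p = 0.0097 by edgeR), in a fit that called 0.204% of genes higher. Each SE of a log2 fold change was derived from the test, as its absolute value divided by the square root of the F statistic. Each cell of at least 5000 UMIs was thinned to that number, and cells with fewer were left out of the thinned shares. After thinning, 9.35% to 15.8% of Tet-TKO cells and 2.95% and 3.59% of host cells had a Mixl1 UMI (unthinned, 16.8% to 40.7% and 5.29% and 6.72%). In erythroid-like cells, which should lack the gene, the thinned share was 0.152% and 0.136% in the host. In Tet-TKO libraries 1 to 4 it was 1.45%, 1.75%, 0% and 0%, of 69, 171, 34 and 9 such cells. The call is at the edge of its threshold, since leaving out any 1 library ended it, with an adjusted p from 0.011 to 0.16, as did DESeq2 size factors, like libraries summed, doublets removed, the sort matched and resolution 1 (0.010 to 0.018). The direction was kept in all 18 alternatives, at log2 fold changes of 1.47 to 2.35.

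The other members of this class differed less. T stood at 193, 196, 196 and 220 CPM in Tet-TKO libraries and at 132 and 168 CPM in host libraries, without overlap (log2 fold change 0.44, adjusted p = 0.19). Tbx6 ran the other way, with 6.89, 9.62, 10.4 and 11.1 CPM against 13.7 and 14.9 CPM, also without overlap (-0.59, adjusted p = 0.32). The share of cells with a Tbx6 UMI after thinning did overlap there, at 3.62% to 12.3% and 5.49% to 7.17%. Evx1, at 55.9 to 68.6 CPM against 52.2 and 65.1 CPM, overlapped, as did Mesp1, Lhx1, Msgn1 and Snai1, and Eomes was at most 1.18 CPM. The 7 markers by which the class was named summed to 1222 to 1377 CPM in Tet-TKO and 1609 to 1792 CPM in host libraries, the 6 primitive streak markers to 448 to 563 and 584 to 639 CPM, and the 6 presomitic mesoderm markers to 430 to 675 and 440 to 603 CPM, with no marker of the 3 lists at 0. The part of these shifts in the member levels was not tested.

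In presomitic mesoderm-like cells Tbx6, the factor that keeps these cells mesodermal, was lower in every Tet-TKO library. Tet-TKO libraries 1 to 4 held 46.4, 57.7, 55.2 and 62.8 CPM, whereas the host libraries held 92.6 and 108 CPM. The host levels stood clear above the highest Tet-TKO library. The log2 fold change was -0.86 ± 0.15 (SE), with an adjusted p of 0.040 by edgeR, so the difference passed neither the fold nor the p of a call. It was negative in all 18 alternatives, from -0.96 to -0.72, with adjusted p from 4.9e-11 to 0.65, and reached a call in none. Between 17.5% and 24.5% of Tet-TKO cells had a Tbx6 UMI after thinning to 5000 UMIs, against 31.4% and 36.8% of host cells (unthinned, 44.0% to 82.9% and 52.7% and 65.5%, where the deeper Tet-TKO libraries have the higher shares), and 0.152% and 0.273% of erythroid-like host cells. No erythroid-like Tet-TKO cell had a Tbx6 UMI after thinning.

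The 6 presomitic mesoderm markers, which do not include Tbx6, summed to 829 to 1073 CPM in Tet-TKO and 889 to 1003 CPM in host libraries and overlapped. Taken singly, only 1 of these 6 was higher in the Tet-TKO mean. The 6 nascent mesoderm markers summed to 217 to 239 CPM in Tet-TKO and 252 to 269 CPM in host libraries without overlap, with 3 of 6 higher in the Tet-TKO mean. The part of either list in the Tbx6 level was not tested. Msgn1, which acts beside Tbx6 in this tissue, overlapped too, with 12.9, 10.9, 9.76 and 11.2 CPM against 16.2 and 8.95 CPM (log2 fold change -0.18, adjusted p = 0.90). T was 155, 151, 162 and 123 CPM against 123 and 103 CPM (0.40, adjusted p = 0.59), and the lowest Tet-TKO library only just exceeded the higher host library. Evx1 was 56.7, 47.7, 56.1 and 43.4 CPM against 58.0 and 62.6 CPM, and Snai1 70.7, 62.3, 54.2 and 62.5 CPM against 81.0 and 72.1 CPM. Both lay below the host libraries, by log2 fold changes of -0.23 and -0.28 with adjusted p = 0.78 and 0.71, and without correction between libraries Evx1 turned to 0.31.

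Mesp1 in presomitic mesoderm-like cells could not be ranked by genotype. Its values were 119, 28.2, 16.1 and 7.86 CPM in Tet-TKO libraries and 72.7 and 18.4 CPM in host libraries. Library 1 of each genotype was the higher, and the range within a genotype exceeded any difference between them (log2 fold change -0.02, adjusted p = 0.999). Mixl1 overlapped (76.3, 65.7, 49.3 and 36.3 CPM against 45.9 and 32.6 CPM). Eomes was 7.25 CPM in Tet-TKO library 1 and 3.39 CPM in WT host library 1, and at most 0.24 CPM in the other libraries.

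**Figure D2:**
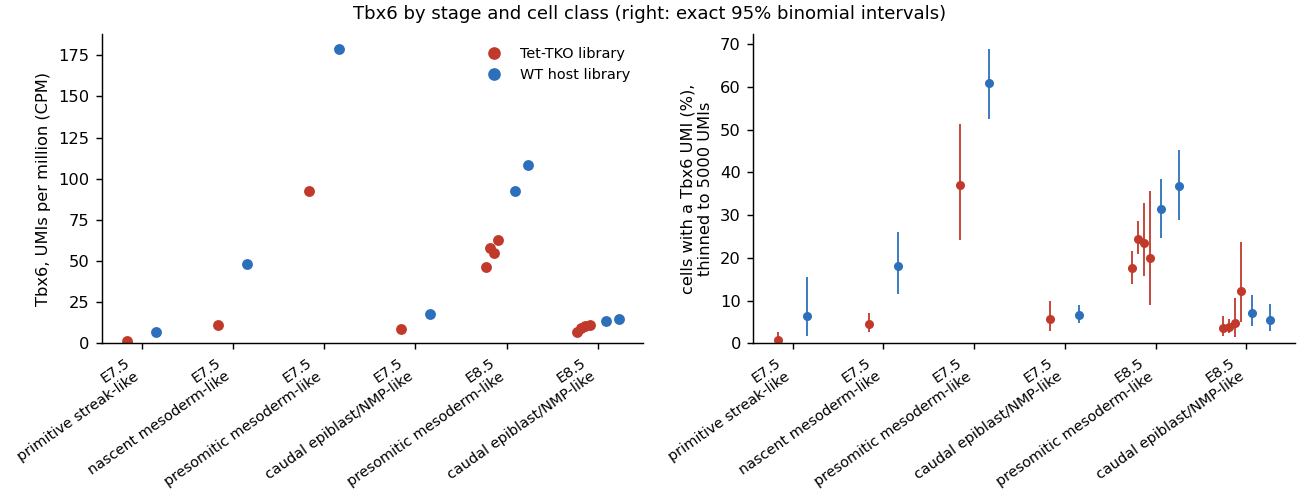
Tbx6 by stage and cell class, as CPM per library on the left and as the percentage of cells with a Tbx6 UMI after thinning to 5000 UMIs, with exact 95% binomial intervals, on the right (red, Tet-TKO; blue, WT host). In presomitic mesoderm-like cells at E8.5 the 4 Tet-TKO libraries lie between 46.4 and 62.8 CPM and the host libraries at 92.6 and 108 CPM, and at E7.5 the single Tet-TKO library lies below the single host library in each class shown. The E7.5 intervals on the right overlap in streak-like and in caudal epiblast and NMP-like cells.

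In the caudal cells of cluster 6, T was again higher and Evx1 lower in Tet-TKO cells, neither by a call in these fits. T was 63.4, 52.5, 38.2 and 47.1 CPM in Tet-TKO and 26.7 and 17.3 CPM in host libraries, which did not overlap (log2 fold change 1.23, adjusted p = 0.090), and T was called with DESeq2, with no filter on low counts and with the replicate block. Evx1, a posterior homeodomain factor, was 48.3, 52.7, 49.5 and 55.2 CPM in Tet-TKO and 79.2 and 82.6 CPM in host libraries. Here the host libraries stood above every Tet-TKO library (-0.64, adjusted p = 0.056).

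T was also higher in cluster 37, where Tet-TKO libraries 1 to 3 held 42.9, 48.1 and 52.3 CPM against 18.3 and 14.4 CPM in the host, and this difference was called (log2 fold change 1.57 ± 0.22, adjusted p = 0.0088, in a fit that called 0.173% of genes higher). Of the 401 cells of this cluster 377 were marked as doublets, being among the cells with the highest Scrublet scores of their library up to the share of doublets expected for its size. The median UMI count of the cluster was 1.80 times that of the library, and too few cells for a test were left without them. Its presomitic mesoderm markers summed to 191 to 262 CPM in Tet-TKO and 137 to 165 CPM in host libraries, with 3 of 6 higher in the Tet-TKO mean. The sums of its caudal epiblast and NMP markers (274 to 428 against 275 to 294 CPM) overlapped, as did those of its spinal cord and somite markers. The part of these in the T level was not tested. The call was lost without Tet-TKO library 1 or 2 or either host library (adjusted p from 0.022 to 0.30), and with like libraries summed, the sort matched or resolution 1 (0.013 to 0.030). In notochord-like cells, where T is required for the tissue itself, 2 Tet-TKO libraries with at least 10 cells gave 1077 and 1034 CPM and the host libraries 1200 and 1236 CPM. These did not overlap but differed little (-0.13, adjusted p = 0.73), and 29.4% of the cells of that class were marked as doublets. Its 5 notochord markers summed to 1040.1 to 1313 CPM in Tet-TKO and 1692 to 1886 CPM in host libraries and the 7 caudal epiblast and NMP markers to 212 to 232 and 257 to 335 CPM, both without overlap, and their part in the T level was not tested.

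Lhx1 was the member whose Tet-TKO libraries most often all lay above the host. In the 21 classes where it had enough counts to be tested, all Tet-TKO libraries lay above the host libraries in 12 and below them in 0. Over all genes and classes tested, 10.9% of pairs lay wholly above and 13.9% wholly below. Counted over all 38 classes, those with few UMIs included, Lhx1 lay wholly above in 16 and below in 1. In somite-like cells Lhx1 was 35.8, 30.8, 27.8 and 34.6 CPM in Tet-TKO and 13.6 and 10.6 CPM in host libraries. The lowest Tet-TKO library lay well above the higher host library (log2 fold change 1.42 ± 0.24, adjusted p = 0.028). In cardiomyocyte-like cells it was 24.2 ± 5.79 CPM (mean ± SD, n = 4) against 9.87 ± 0.797 CPM (n = 2), again without overlap (1.24, adjusted p = 0.043). The largest fitted change of Lhx1 was in pharyngeal mesoderm-like cells, from a low level, at 4.97 to 7.24 CPM against 2.12 and 0.586 CPM (2.32, adjusted p = 0.12). In both genotypes these levels lay below those of Lhx1 in the whole libraries. The share of erythroid-like cells with an Lhx1 UMI is not given here. The part of free RNA from other cells in the spread of Lhx1 over classes was not tested. In cluster 29, where Lhx1 was highest, it was 164, 153, 192 and 148 CPM against 146 and 144 CPM, a log2 fold change of 0.20 (adjusted p = 0.75). No class passed the threshold for Lhx1 in these fits. Somite-like cells passed it with DESeq2, and with no filter on low counts somite-like, cardiomyocyte-like and pharyngeal mesoderm-like cells and cluster 31 did. The replicate block, no correction between libraries or leaving out 1 library also added calls, in somite-like, cardiomyocyte-like, epiblast-like and spinal cord-like cells, in clusters 3 and 31, and in cluster 52 without Tet-TKO library 3 or host library 2, respectively. The somite-like cells also held 5 intermediate mesoderm markers at a sum of 19.2 to 35.8 CPM in Tet-TKO and 11.7 to 19.7 CPM in host libraries, each higher in its Tet-TKO mean, with Pax2 and Pax8 at 0 in the host.

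Snai1 was called lower in Tet-TKO cells of 1 class. In neural crest-like cells Tet-TKO libraries 1 to 3 held 38.7, 27.4 and 37.7 CPM against 77.1 and 80.6 CPM in the host, and each of these lay below the host, as did library 4 with 9 cells, which was not used (51.4 CPM). The log2 fold change was -1.19 ± 0.18 (adjusted p = 0.0072, in a fit that called 0.19% of genes lower). After thinning, 12.2%, 13.1% and 8.16% of Tet-TKO cells and 34.3% and 26.1% of host cells had a Snai1 UMI (unthinned, 20.9% to 63.3% and 50.5% and 56.6%), against 1.29% and 1.09% of erythroid-like host cells and 0% to 4.35% of erythroid-like Tet-TKO cells. The 6 neural crest markers summed to 314 to 613 CPM in Tet-TKO and 649 to 683 CPM in host libraries with none of 6 higher in the Tet-TKO mean, and the midbrain and hindbrain markers to 103 to 146 and 84.6 to 91.5 CPM. The part of these in the Snai1 level was not tested. The call was lost without Tet-TKO library 1 or 2 or either host library (adjusted p from 0.014 to 0.14), with doublets removed (0.016), like libraries summed (0.032) or resolution 1 (0.034), and with cells clustered without correction between libraries, where the log2 fold change was -0.43.

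In the 3 tested classes with the most Snai1 no call was reached. In ExE mesoderm-like cells it was 128, 119, 104 and 128 CPM in Tet-TKO and 195 and 153 CPM in host libraries (log2 fold change -0.56, adjusted p = 0.16), and in cluster 4 it was 114, 109, 86.6 and 95.4 CPM against 151 and 133 CPM (-0.49, adjusted p = 0.25). Neither overlapped. Among the classes in which each was tested, Snai1 was wholly below the host in 8 of 32 and wholly above in 0, and Tbx6 wholly below in 4 of 6 and above in 0, beside the 13.9% and 10.9% of all genes. T was wholly above in 4 and below in 2 of 19, Mixl1 above in 1 of 8, Mesp1 above in 2 and below in 1 of 12, and Evx1 above in 2 and below in 4 of 16. Msgn1 (1 class) and Eomes (3 classes) always overlapped. The classes share the same libraries, and counts this small are not read as differing from those of all genes.

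**Figure D3:**
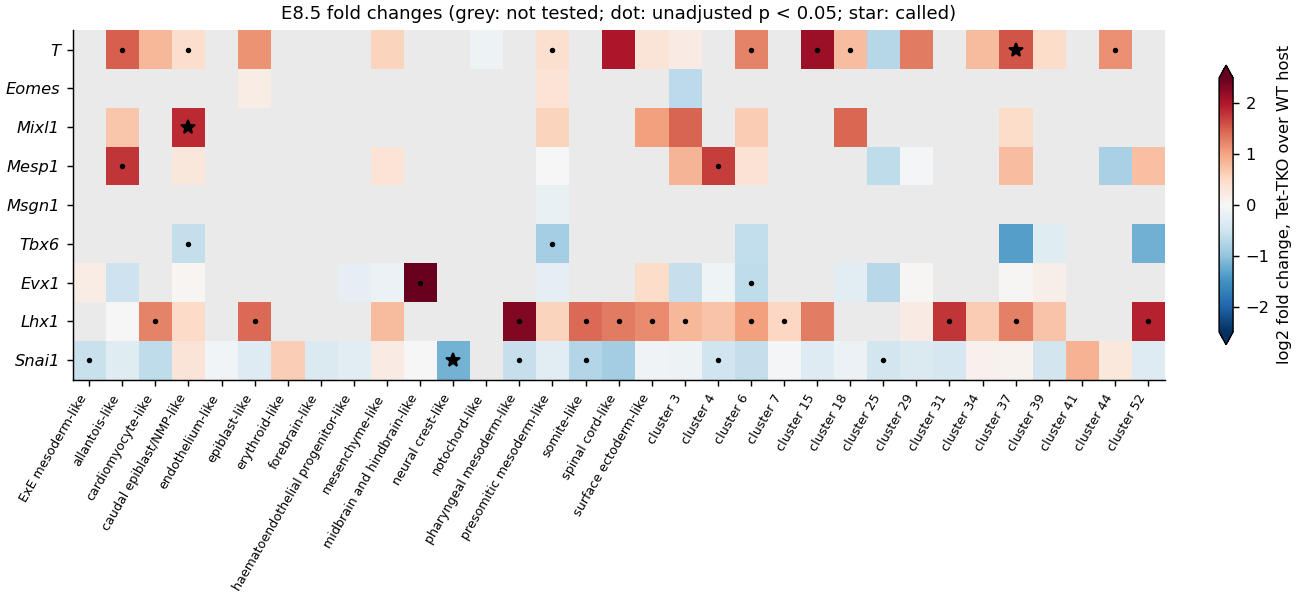
Log2 fold change of each member, Tet-TKO over WT host, in each class at E8.5 in which at least 1 member was tested (grey, not tested; dot, unadjusted p below 0.05; star, called). Lhx1, T and Mixl1 are red in most classes tested, Tbx6 and most Snai1 fields are blue, and the 3 stars are Mixl1 in the caudal epiblast and NMP-like class, T in cluster 37 and Snai1 in neural crest-like cells.

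When all cells of a library were summed, Lhx1 alone was called among the 9 members, at 18.2, 13.7, 19.8 and 22.1 CPM in Tet-TKO and 6.66 and 5.50 CPM in host libraries. All Tet-TKO libraries were above the host (log2 fold change 1.51 ± 0.18, adjusted p = 0.0046, in a fit that called 0.588% of genes higher and 2.05% lower). In such sums, fewer cells of a type and less RNA per cell cannot be told apart. Erythroid-like cells, which hold little of any member, made up 17.0% and 25.9% of the host libraries and 1.07% to 2.05% of the Tet-TKO libraries. Without them and the extraembryonic cells the log2 fold change of Lhx1 was 1.22 (adjusted p = 0.013), which is no longer a call, and leaving out any 1 library but Tet-TKO library 2 also ended it (adjusted p from 0.012 to 0.041). T was 35.5, 32.1, 28.1 and 27.5 CPM against 17.7 and 11.4 CPM (1.02, adjusted p = 0.041), and Mixl1 11.7, 9.06, 4.94 and 4.40 CPM against 2.71 and 1.62 CPM (1.76, adjusted p = 0.085). These did not overlap between the genotypes, and without those cells their log2 fold changes were 0.66 and 1.46. Some classes that hold these genes were also larger in Tet-TKO libraries, presomitic mesoderm-like cells at 4.07% to 5.91% of cells against 1.64% and 2.28%, and caudal epiblast and NMP-like cells at 4.35% to 6.13% against 2.75% and 2.799%. Others that hold T were not. Notochord-like cells were at 0.0992% to 0.398% against 0.618% and 0.221%, and cluster 18 at 1.04% to 2.13% against 4.59% and 2.02%. The median log2 fold change of the 9 members was 0.92, against 0.02 for all 21074 genes. Mesp1, at 17.8, 6.31, 2.998 and 2.92 CPM against 4.54 and 1.22 CPM, overlapped, with library 1 the highest in each genotype.

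**Figure D4:**
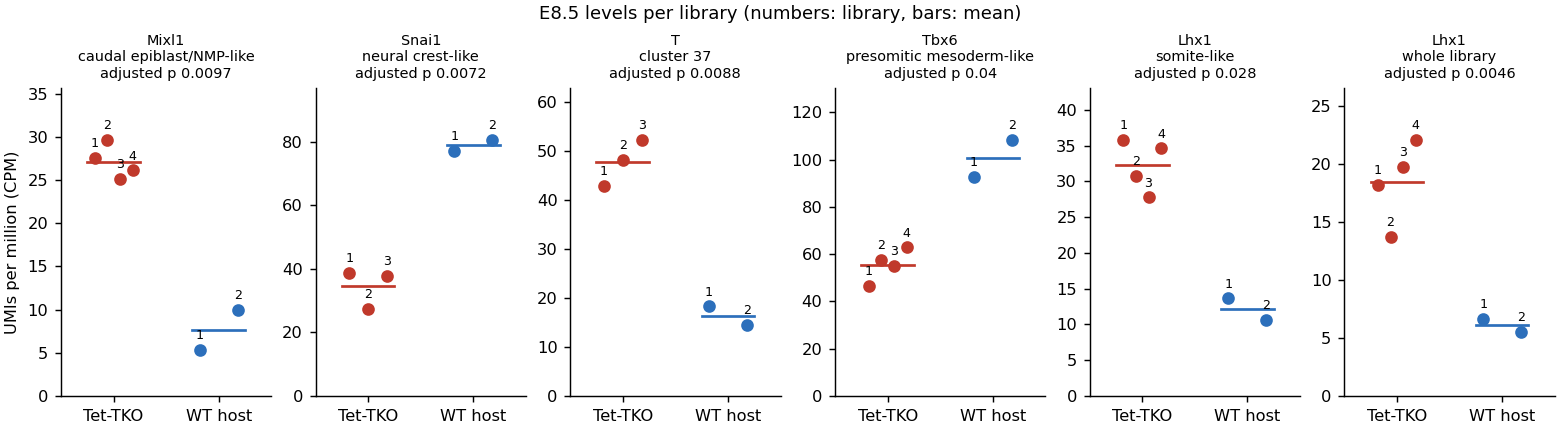
Levels per library, in CPM, for the 4 called results and 2 near the threshold at E8.5, with library numbers beside the points and a bar at the mean (red, Tet-TKO; blue, WT host). In all 6 panels the points of the genotypes do not overlap, with Mixl1, T and Lhx1 higher and Snai1 and Tbx6 lower in Tet-TKO libraries.

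At E7.5, during gastrulation, each genotype had 1 library, so these values have no test. Intervals are exact 95% Poisson intervals and cover counting error only. In epiblast-like cells (611 Tet-TKO and 436 host cells) Eomes was 61.5 CPM against 24.4 CPM, a ratio of 2.53 (2.14 to 2.998), and T was 13.0 against 3.54 CPM (3.67, 2.40 to 5.85). Evx1 had 103 and 10 UMIs (4.40, 2.30 to 9.45), Mesp1 48 and 7 and Mixl1 55 and 0. Snai1, at 6.37 and 8.71 CPM (0.73, 0.525 to 1.03), and Lhx1, at 1.64 and 1.48 CPM (1.11, 0.518 to 2.58), had intervals that held 1. After thinning to 5000 UMIs, Eomes was found in 21.5% of Tet-TKO and 9.47% of host cells (unthinned, 56.8% and 17.4%) and Evx1 in 3.44% (2.14 to 5.21, exact binomial interval) and 0.693%, against 2.04% and 0.292% (0.0074 to 1.61) of erythroid-like host cells. The Tet-TKO shares of T (4.75%, 3.21 to 6.76), Mesp1 (1.64%, 0.789 to 2.99) and Mixl1 (1.31%, 0.568 to 2.57) overlapped the intervals of erythroid-like host cells (2.62%, 1.21 to 4.92 for T, 1.17%, 0.319 to 2.96 for Mesp1 and 0.875%, 0.181 to 2.53 for Mixl1), so they are not told apart from free RNA. The same held for Snai1, at 2.79% and 3.002% of Tet-TKO and host cells against 2.04% (0.824 to 4.16) of erythroid-like host cells. The Tet-TKO library held only 2 erythroid-like cells, and its own background, in a library with more T, Mesp1, Mixl1, Evx1 and Eomes in all, could not be measured. This limit applies to the shares of Evx1 and Eomes as well.

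In primitive streak-like cells (261 and 63) T was 279 CPM in Tet-TKO and 170 CPM in host cells (ratio 1.64, 1.39 to 1.95). After thinning, T was found in 61.5% (55.3 to 67.5) of Tet-TKO and 34.9% (23.3 to 48.0) of host cells. Mixl1 and Mesp1 had ratios of 1.56 (1.26 to 1.95) and 1.65 (1.32 to 2.09), while Eomes was 272 and 265 CPM (1.03, 0.894 to 1.18). Thinned shares overlapped for Mixl1, at 39.6% (33.6 to 45.8) and 23.8% (14.0 to 36.2). They also overlapped for Mesp1, at 25.8% (20.6 to 31.5) and 19.0% (10.2 to 30.9), so no order is read for this pair. Lhx1 was 92.7 and 131 CPM (0.71, 0.579 to 0.876), but was found in 19.2% (14.6 to 24.6) of Tet-TKO and 15.9% (7.88 to 27.3) of host cells after thinning (unthinned, 33.3% and 17.5%), so no order is read from it. In nascent mesoderm-like cells (382 and 122), which hold the most Mesp1 of the 6 classes, Mesp1 was 911 and 805 CPM (1.13, 1.07 to 1.197) and Mixl1 257 and 191 CPM (1.34, 1.199 to 1.51). Thinned shares overlapped for Mesp1, at 93.7% (90.8 to 95.9) and 87.7% (80.5 to 93.0). Those of Mixl1 did too, at 60.5% (55.4 to 65.4) and 49.2% (40.0 to 58.4), so no order is read for Mesp1 and Mixl1 there. T was 266 and 364 CPM there (0.73, 0.671 to 0.798), but was found in 54.5% (49.3 to 59.5) of Tet-TKO and 56.6% (47.3 to 65.5) of host cells after thinning (unthinned, 89.3% and 78.7%), so no order is read for T either. Lhx1 (0.96, 0.879 to 1.05), Snai1 (1.12, 0.966 to 1.29) and Evx1 (0.995, 0.790 to 1.27) had intervals that held 1.

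At E7.5 the CPM of Tbx6 was lower in the Tet-TKO library in streak-like, nascent mesoderm-like, presomitic mesoderm-like and caudal epiblast and NMP-like cells. Its thinned shares stood apart only in the nascent and presomitic mesoderm-like classes. In nascent mesoderm-like cells it was 10.9 CPM (104 UMIs) in Tet-TKO and 48.3 CPM (86 UMIs) in host cells, a ratio of 0.23 (0.168 to 0.304). In presomitic mesoderm-like cells (54 and 147) it was 92.5 and 179 CPM (0.52, 0.414 to 0.643), and in caudal epiblast and NMP-like cells (195 and 567) 8.61 and 17.8 CPM (0.48, 0.332 to 0.692). Streak-like cells held 7 and 6 UMIs (0.18, 0.052 to 0.645). Tbx6 had a UMI in 4.45% of Tet-TKO and 18.03% of host nascent mesoderm-like cells after thinning (unthinned, 20.4% and 42.6%), and in 37.0% and 61.0% of presomitic mesoderm-like cells (70.4% and 79.6%), against 0.292% of erythroid-like host cells. In caudal epiblast and NMP-like cells the thinned shares were 5.70% (2.88 to 9.97) and 6.63% (4.71 to 9.02), with overlapping exact binomial intervals. Streak-like cells gave 0.769% (0.0933 to 2.75) and 6.35% (1.76 to 15.5), which also overlapped, so no order is read in either class. No alternative turned the CPM ratio in streak-like, nascent or presomitic mesoderm-like or caudal epiblast and NMP-like cells. In the last of these the log2 ratio ranged from -2.04 to -0.71 over 5 alternatives.

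In the E7.5 presomitic mesoderm-like class Mesp1 was higher in the Tet-TKO library, and no order is read for T and Mixl1. Mesp1 was 299 CPM in Tet-TKO and 119 CPM in host cells (2.52, 2.13 to 2.99). After thinning it was found in 53.7% (39.6 to 67.4) and 27.4% (20.3 to 35.4) of cells. T was 592 and 434 CPM (1.36, 1.23 to 1.51), with overlapping thinned shares of 79.6% (66.5 to 89.4) and 76.7% (69.0 to 83.3). Mixl1 was 96.7 and 65.2 CPM (1.48, 1.14 to 1.92), with overlapping thinned shares of 33.3% (21.1 to 47.5) and 24.7% (17.9 to 32.5). Msgn1 had 9 and 34 UMIs (0.44, 0.184 to 0.931), with overlapping thinned shares of 1.85% (0.0469 to 9.89) and 6.85% (3.33 to 12.2). In caudal epiblast and NMP-like cells Mesp1 was 42.8 and 12.8 CPM (3.35, 2.62 to 4.29), Eomes 31.4 and 15.8 CPM (1.99, 1.56 to 2.55) and T 377 and 271 CPM (1.39, 1.31 to 1.48). The thinned shares of T overlapped there, at 50.8% (43.5 to 58.0) and 41.4% (37.3 to 45.6). Notochord-like cells, 21 and 71 in number, held T at 868 and 1108 CPM (0.78, 0.676 to 0.907). The thinned shares overlapped, at 76.5% (50.1 to 93.2) of 17 and 88.9% (78.4 to 95.4) of 63 cells, and 30.4% of the cells of this class were marked as doublets. Over these 6 classes, 41 of 54 pairs had at least 20 UMIs, of which 7 were at least 2-fold higher and 3 at least 2-fold lower in Tet-TKO cells, where all genes gave 3.15% and 4.84% of 59373 pairs. The 7 include T, Mesp1 and Mixl1 in epiblast-like cells.

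The members were also counted together within single cells, thinned to 5000 UMIs. In nascent mesoderm-like cells a mean of 4.13 ± 1.34 of the 9 members (SD over 382 cells) was found in a Tet-TKO cell and 3.84 ± 1.37 (122 cells) in a host cell, and T and Mesp1 occurred together in 51.3% and 50.0% of cells. In presomitic mesoderm-like cells the pair occurred together in 44.4% of Tet-TKO and 19.9% of host cells. In epiblast-like cells 71.0% of Tet-TKO and 85.5% of host cells held none of the members, beside 90.7% of erythroid-like host cells, and the background of the Tet-TKO library could not be measured. At E8.5 the presomitic mesoderm-like cells held a mean of 1.40 to 2.12 members in Tet-TKO and 1.57 and 1.84 in host libraries, which overlapped.

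**Figure D5:**
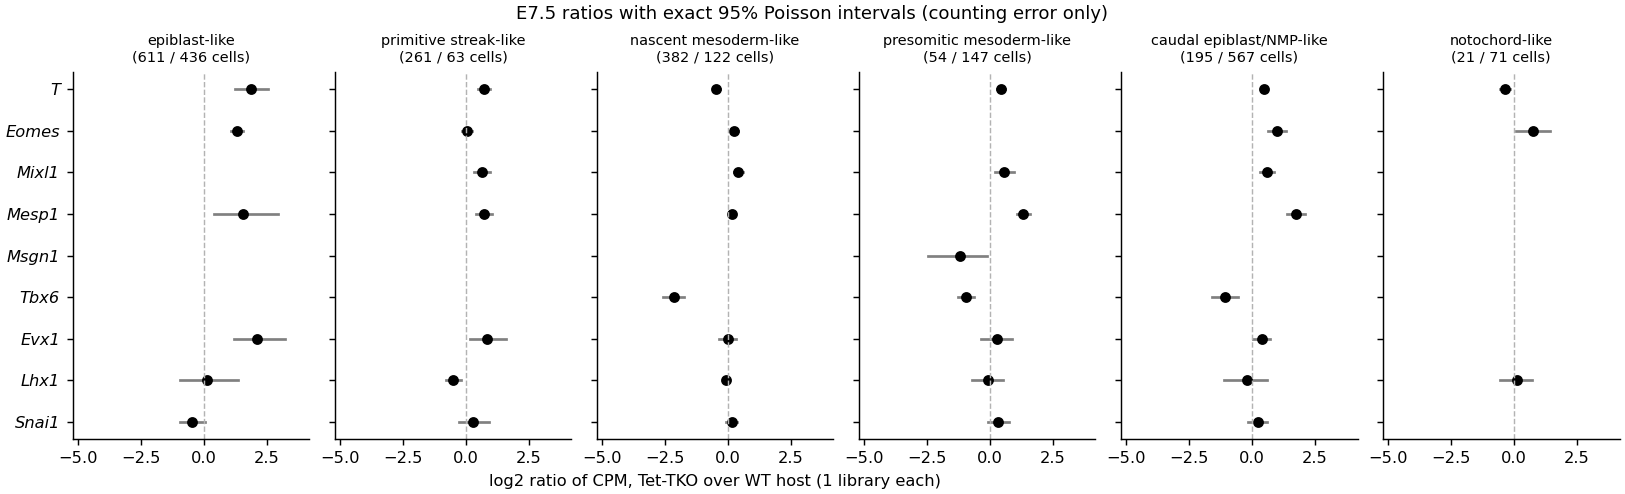
Log2 ratio of CPM, Tet-TKO over WT host, for each member in 6 classes at E7.5 (1 library per genotype; pairs with at least 20 UMIs in all and UMIs in both), with exact 95% Poisson intervals for counting error only and the number of cells of each genotype above each panel. Tbx6 lies left of 0 in nascent mesoderm-like, presomitic mesoderm-like and caudal epiblast and NMP-like cells, while T, Eomes, Mesp1 and Evx1 lie right of 0 in epiblast-like cells.

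In the whole E7.5 libraries Mixl1 was 77.8 CPM in Tet-TKO and 14.4 CPM in host cells (ratio 5.39, 5.10 to 5.70) and Mesp1 221 and 57.1 CPM (3.87, 3.76 to 3.98), while Tbx6 was 4.73 and 8.89 CPM (0.53, 0.477 to 0.595). Named classes rich in Mixl1 made up unequal shares of the libraries, nascent mesoderm-like cells 6.93% of Tet-TKO and 1.71% of host cells and streak-like cells 4.74% and 0.882%, and within them the ratios of Mixl1 were the 1.34 and 1.56 given above. Cluster 18 of E7.5, led by Etv2 and numbered apart from that of E8.5, made up 4.75% and 0.868%. It held 1398 Mixl1 UMIs of 6888155 in Tet-TKO and 86 of 963281 in host cells, a wider difference within the class. Clusters 4, 6 and 7 of E7.5 had median UMI counts of 0.288, 0.140 and 0.549 times that of the library. They made up 11.5%, 8.46% and 8.97% of Tet-TKO cells and 0.490%, 2.13% and 0.434% of host cells. In cluster 7, 27.2% of cells were marked as doublets. The part of class shares and of these cells in the whole-library ratio was not tested. ExE ectoderm-like cells, a lineage that injected stem cells rarely enter, numbered 1905 in the host and 14 in the Tet-TKO library. Without them and the ExE endoderm-like cells the log2 ratio of Mixl1 moved from 2.43 to 1.91 and that of Tbx6 from -0.91 to -1.46. From E7.5 to E8.5 the presomitic mesoderm-like cells of the host went from 179 to 92.6 and 108 CPM of Tbx6 and from 434 to 123 and 103 CPM of T, and Tet-TKO cells from 92.5 to 46.4 to 62.8 CPM and from 592 to 123 to 162 CPM. With 1 library per genotype at E7.5 the change with stage was not tested.

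Around the members, 23 other genes of gastrulation were read from the same fits: signals and their nuclear partners (Tdgf1, Foxh1, Fgf4, Bmp4, Wnt3a, Lef1, Tcf7l1 and Cdx1), downstream and segment genes (Mesp2, Ripply2, Foxc1, Foxc2, Gsc and Evx2) and genes of the epithelial-mesenchymal transition (Cdh1, Cdh2, Epcam, Fn1, Vim, Snai2, Zeb1, Zeb2 and Twist1). Of 874 pairs of a gene and a class at E8.5, 468 were tested, 1 was called higher and 3 lower (0.214% and 0.641%), near the 0.234% and 0.357% of all genes. Twist1, a bHLH factor of mesenchyme, was higher in Tet-TKO epiblast-like cells (23.1 against 5.87 CPM, log2 fold change 2.005, adjusted p = 0.0083). Fn1, which encodes fibronectin, was lower in cluster 18, led by Nepn and Apela (128 against 298 CPM, -1.16, adjusted p = 0.00071). Foxc2, a forkhead factor of paraxial mesoderm and vessels, was lower in endothelium-like cells (-1.46, adjusted p = 0.0092) and in cluster 44 (-1.45, adjusted p = 0.0015), where 55.5% of cells were marked as doublets. Each of these calls was lost without host library 1, at adjusted p from 0.012 to 0.56. All but that of cluster 44 were also lost without host library 2, that of Twist1 without Tet-TKO library 1 or 2, and that of Foxc2 in endothelium-like cells without Tet-TKO library 2 or 4. The call of Twist1 was also lost with DESeq2, like libraries summed, doublets removed, the sort matched, resolution 1 and no correction between libraries, its log2 fold change ranging from 0.99 to 2.19 over 18 alternatives. That of Foxc2 in endothelium-like cells was also lost with DESeq2, like libraries summed, the sort matched and at least 30 cells per sum (-1.72 to -1.31). In cluster 44 the log2 fold change of Foxc2 ranged from -1.66 to -0.35 over 17 alternatives, and the call was also lost with DESeq2 (adjusted p = 0.057), with like libraries summed (0.45) and without correction between libraries (0.59).

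Near Tbx6 in presomitic mesoderm-like cells, Fgf4, a ligand of the same tissue, was 8.56 ± 0.898 CPM in Tet-TKO and 17.3 ± 2.15 CPM in host libraries (n = 4 and 2, log2 fold change -1.02, adjusted p = 0.10) without overlap. In caudal epiblast and NMP-like cells Twist1 was 19.7 ± 5.08 and 5.91 ± 1.34 CPM (1.76, adjusted p = 0.043), also without overlap. In E7.5 nascent mesoderm-like cells Wnt3a had 11 and 16 UMIs (ratio 0.13, 0.054 to 0.294), Foxc2 5.34 and 19.7 CPM (0.27, 0.173 to 0.431), Fgf4 4.71 and 12.9 CPM (0.37, 0.216 to 0.632), and Gsc 66.5 and 42.7 CPM (1.56, 1.23 to 2.005). Snai2 was the 1 gene of the list called in whole libraries, at 25.1 ± 0.698 and 9.95 ± 0.116 CPM (1.26, adjusted p = 0.0029), a call that was lost without either host library, with like libraries summed and without the erythroid-like and extraembryonic cells.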

How the data were processed

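The authors aligned the reads with Cell Ranger (3.1.0 in the header of the counts, where the study's methods name another version) to mm10 with added tdTomato and the UMI counts they deposited are raw. Cells under 1500 UMIs, or with over 30% mitochondrial or 35% ribosomal counts, were removed. Each stage was clustered (2500 variable genes without the members, 50 components, mutual nearest neighbour correction, Leiden resolution 2). Counts were summed per class and library, for sums of at least 10 cells, and tested with edgeR 4.0.16 (quasi-likelihood, TMM, filterByExpr, R 4.3.3), with Benjamini-Hochberg adjustment over all genes of a fit. A call required an adjusted p below 0.01 and an absolute log2 fold change of at least 1. For shares, cells of at least 5000 UMIs were thinned to 5000 and cells with fewer were left out. The fit was tested on simulated data. All 9 members were counted in every class, and levels are given for a selection of classes and members. At E7.5 these are mainly 6 named classes. Programme genes that passed a call or lay beside a member are also given, with genes among the 3 most correlated with a member. The members and gene lists were chosen with earlier results of these data known. Alternatives covered DESeq2 1.42.0, normalization, filters, clustering, doublets (Scrublet scores), the sort, single libraries and a replicate block.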

Additional observations from a re-analysis of the deposited data

Results flagged for a closer look

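Among the 53 sets of 4 Tet-TKO libraries examined at E8.5, 7 held a library that stood apart from the others by Dixon's criterion, which chance meets in about 1 of 20 sets. Eomes in whole libraries was 2.61 CPM in Tet-TKO library 1 and at most 0.374 CPM in the others. Eomes in presomitic mesoderm-like cells was 7.25 CPM in the same library and at most 0.244 CPM in the others, and in cluster 29 it was 1.91 CPM there and 0 elsewhere. T in caudal epiblast and NMP-like cells was 220 CPM in Tet-TKO library 4, against 196 CPM in the nearest library. In somite-like cells Mixl1 (0.628 CPM, library 2), Msgn1 (0.427 CPM, library 3) and Evx1 (0.628 CPM, library 2) each had a single UMI in 1 Tet-TKO library and 0 in the others, a pattern that meets the criterion by construction, as does that of Eomes in cluster 29 (6 UMIs and 0), and to which the chance rate does not apply.

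Evx1 and Snai1 in presomitic mesoderm-like cells lay in opposite directions at the 2 stages. The Tet-TKO mean minus the host mean at E8.5 was -9.33 CPM for Evx1 and -14.1 CPM for Snai1, with no overlap, whereas at E7.5 the ratios were 1.22 and 1.26. The difference between the stages was not tested, and the E7.5 intervals of both ratios held 1. Without correction between libraries Evx1 turned at E8.5, to a log2 fold change of 0.31.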

How the results depend on the processing

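Depth, 2 host libraries and 1 library per genotype at E7.5 limit these results. Of 1006 values for 58 results at E8.5 under the alternatives, 892 kept their direction and side of the threshold, 61 fell below it, 31 passed it and 22 turned, and of 85 values for 19 results at E7.5, 62 moved by less than counting error, 21 by more and 2 turned. Most of the 58 results were not calls, so the 892 are largely results that stayed below the threshold. All 61 that fell below it belong to the few called results, so the 892 do not measure how stable the calls are. Where no construction of the alternative shows it, the cause was not tested.

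The 1 member called higher in whole libraries became 3 with DESeq2, and 0 with like libraries summed or without erythroid-like and extraembryonic cells. The 2 called higher within classes became 1 with DESeq2 size factors, 4 with DESeq2, 11 with no filter on low counts, 6 without correction between libraries, and 0 with like libraries summed, doublets removed, tdTomato matched to the sort or resolution 1. The 1 called lower became 0 with like libraries summed, doublets removed, resolution 1 or no correction. The 1 programme gene called higher became 5 with DESeq2, 13 with no filter, 11 without correction, 2 with the sort matched, 3 with at least 30 cells, 3 with no minimum fold, and 0 with like libraries summed or resolution 1. These counts do not say which genes, and Twist1 in epiblast-like cells was not among those called with DESeq2, the sort matched or without correction. The 3 called lower became 15 with no filter and 1 with like libraries summed. At E7.5 the 7 members at least 2-fold higher became 3 without correction, and the 3 lower became 8 without correction and 1 with the sort matched or at resolution 1. Leaving out single libraries gave 0 to 1 called higher and 0 lower in whole libraries, 0 to 2 and 0 to 1 within classes, and 0 to 3 and 0 to 5 for the programme list. The share of all genes past the threshold under each alternative is not given here. None of these counts is therefore read as particular to the members or the list.

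The replicate block, which pairs libraries 1 and 2 of each genotype and leaves out Tet-TKO libraries 3 and 4, called 5 members higher in whole libraries, 21 higher within classes, and 24 higher and 10 lower of the programme list, and turned Mesp1 in presomitic mesoderm-like cells to 0.76. The share of all genes called by the blocked fits is not given here, so these counts are not read as particular to the members or the list. The paper sets Tet-TKO samples against matching host samples, but the labels do not say which libraries match, and the main fits left pairing out. The pairing used in the block rests on a number alone. Deviations correlated by 0.30 for libraries 1 and -0.04 for libraries 2 over 21074 genes.

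Mesp1 in presomitic mesoderm-like cells (-0.02, log2 fold change) also turned with no filter (0.018), like libraries summed (0.049), the sort matched (0.23), resolution 1 (0.088), no correction (0.80), and without Tet-TKO library 2 (0.15), 3 (0.26), 4 (0.30) or host library 1 (1.33). Without erythroid-like and extraembryonic cells Snai1 (-0.056), Tbx6 (-0.049) and Eomes (0.039) turned in whole libraries. Without host library 1, Eomes in whole libraries (0.0014), Evx1 in caudal epiblast and NMP-like cells (-0.10) and Msgn1 in presomitic mesoderm-like cells (0.35) turned. Without host library 2, Mesp1 (-0.14) and Lhx1 (-0.35) in caudal epiblast and NMP-like cells and Eomes in presomitic mesoderm-like cells (-0.50) turned. T in cluster 44 turned without Tet-TKO library 1 (-0.20). Over all single libraries left out, the farthest values on the other side were -1.35 for Mesp1, 6.43 for Eomes and -0.52 for Msgn1 in presomitic mesoderm-like cells, 0.22 for Evx1, 0.95 for Mesp1 and 3.11 for Lhx1 in caudal epiblast and NMP-like cells, -2.74 for Eomes in whole libraries and 1.92 for T in cluster 44. Without correction Lhx1 in cluster 6 (-0.10), Evx1 in presomitic mesoderm-like cells (0.31) and Mixl1 in E7.5 caudal epiblast and NMP-like cells (-0.61, log2 ratio) turned, as did Msgn1 in the whole E7.5 library without ExE cells (-0.40).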
